A study of Homo sapiens with 17 samples.

Results

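The genes described here are 6 ligands of the epidermal growth factor (EGF) family, EREG, AREG, HBEGF, TGFA, BTC and NRG1, and 3 of their receptors, EGFR, ERBB2 and ERBB3. They were taken by symbol and are 9 of the 17808 genes in the table, and all 9 were among the 12922 genes tested. They were picked with their RNA levels in these same libraries already known, so their levels and differences are given as a description and with no p-value. Where the fit over all genes called one of them, that is stated as a record of the fit and supports nothing, since the call and the choice rest on the same values. RNA-seq was read in 9 libraries of cells labelled as HepG2, a human hepatocellular carcinoma line, wild type in every group and grown in DMEM with serum. The groups were cells given 2-DG at 40 mM, cells given Nala at 40 mM and untreated cells (NC), with 3 libraries each. 2-DG is 2-deoxyglucose, a glucose analogue that is phosphorylated but not carried through glycolysis, and Nala is spelled as in the labels. The sample titles give 48 h for 2-DG, 48 h for Nala and 24 h for NC, so treatment and time in culture cannot be told apart, and the series design gives 24 h for Nala.

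EGF family ligands are made as membrane-anchored precursors and are released by sheddases such as ADAM17. EREG, AREG, HBEGF, TGFA and BTC bind EGFR, and some of them also bind ERBB4, while NRG1 binds ERBB3 and ERBB4. Bound receptors pair with each other, and ERBB2, which has no known ligand of its own, is their common partner. The pairs signal through RAS and ERK and through PI3K and AKT. In the liver, ligands of EGFR are known for driving hepatocyte growth during regeneration.

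Values are RPKM, read counts scaled to gene length and to the total counted in the library. Counted totals lay between 6199778 and 6653130 reads per library, so that 1 read in a 1 kb gene was worth 0.150 to 0.161 RPKM. Nala replicates 2 and 3 differed by less than the sampling noise (chi-square per degree of freedom 0.923 over 12897 genes) and entered every fit as 1 sample, so that Nala counts as n = 2 there. The pairs within NC gave 3.52 to 9.89 and those within 2-DG 2.12 to 9.56, with replicate 1 farthest from the others in both groups. Of 16 listed hepatocyte markers 6 were among the genes analysed here, and APOB lay at 0 to 0.0110 RPKM over the 9 libraries. The data thus go against the label as far as this marker reaches, although CPS1 lay at 81.8 to 129.4 RPKM. Of the listed fibroblast markers 5 of 6 were present, with summed levels of 33.2 to 50.9 RPKM with 2-DG, 60.5 to 69.9 with Nala and 44.6 to 85.4 in NC. Most of each sum was COL1A1 alone, at 26.1 to 59.1 RPKM over the 9 libraries. LUM stayed at 0.220 RPKM or below and DCN at 1.27 RPKM or below. The immune list (5 of 6 present) summed to 9.44 to 15.7 RPKM with 2-DG, 25.9 to 28.2 with Nala and 25.1 to 28.5 in NC, with its defining marker PTPRC at 0.0593 RPKM or below in every library. The biliary list (6 of 6 present) summed to 113.8 to 130.0 RPKM with 2-DG, 125.1 to 134.6 with Nala and 126.1 to 142.7 in NC. Most of that sum was KRT7 alone, at 110.0 to 140.3 RPKM over the 9 libraries. KRT19, SOX9 and CFTR stayed under 1 RPKM in every library. The endothelial list (4 of 4) summed to 1.79 to 2.14 RPKM with 2-DG, 2.28 to 4.51 with Nala and 1.33 to 7.89 in NC. The top of the NC range was CDH5 in NC replicate 1, at 7.85 RPKM. PECAM1, VWF and TEK stayed under 1 RPKM in every library. The part of these markers in the differences below was not tested. Whether fewer cells of a type or less RNA per cell lies behind a level cannot be told apart in bulk samples.

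Among the ligands 3 lie side by side. EREG, AREG and BTC sit on chromosome 4 (GRCh38.p14) together with EPGN, a further EGF family ligand that is not among the 9, within 486.1 kb. EREG spans chr4:74365145-74388749, AREG chr4:74445136-74455005, BTC chr4:74744759-74794523 and EPGN chr4:74308470-74316789. TGFA lies elsewhere, at chr2:70447284-70553826. These 5 genes are the ligands that were higher with 2-DG, so the 250 bases before their annotated starts are shown from RefSeq, whose promoter table (GRCh38.p14) held 7 of the 9 genes, all but NRG1 and ERBB3. Capitals mark matches to TGACGTCA, the cAMP response element (CRE), and to TATAAA, the TATA box.

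EREG: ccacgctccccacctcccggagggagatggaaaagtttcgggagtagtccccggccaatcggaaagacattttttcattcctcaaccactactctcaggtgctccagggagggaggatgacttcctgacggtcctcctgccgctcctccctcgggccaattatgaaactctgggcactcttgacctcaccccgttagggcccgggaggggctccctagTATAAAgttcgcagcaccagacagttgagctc
AREG: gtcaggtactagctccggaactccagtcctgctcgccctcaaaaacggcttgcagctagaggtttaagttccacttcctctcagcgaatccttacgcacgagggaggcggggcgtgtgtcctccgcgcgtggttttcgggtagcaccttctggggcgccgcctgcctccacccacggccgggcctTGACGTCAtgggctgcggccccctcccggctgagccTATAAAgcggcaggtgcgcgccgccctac
EPGN: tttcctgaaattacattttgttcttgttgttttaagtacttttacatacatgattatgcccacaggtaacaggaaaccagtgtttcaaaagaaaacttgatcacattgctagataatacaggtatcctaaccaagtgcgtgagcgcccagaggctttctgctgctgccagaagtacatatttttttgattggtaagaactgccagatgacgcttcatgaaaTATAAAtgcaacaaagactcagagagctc
BTC: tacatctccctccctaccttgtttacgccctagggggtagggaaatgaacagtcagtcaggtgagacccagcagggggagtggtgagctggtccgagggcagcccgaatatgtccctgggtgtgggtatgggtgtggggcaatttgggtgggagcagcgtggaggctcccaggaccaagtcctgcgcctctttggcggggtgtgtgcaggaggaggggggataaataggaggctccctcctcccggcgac
TGFA: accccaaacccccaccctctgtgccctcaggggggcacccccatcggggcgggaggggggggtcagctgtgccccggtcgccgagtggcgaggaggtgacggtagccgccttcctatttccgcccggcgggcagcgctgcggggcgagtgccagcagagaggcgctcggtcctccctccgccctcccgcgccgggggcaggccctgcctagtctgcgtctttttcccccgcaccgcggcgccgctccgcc

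These windows are chr4:74364895-74365144 (plus strand) for EREG, chr4:74444886-74445135 (plus strand) for AREG, chr4:74308220-74308469 (plus strand) for EPGN, chr4:74794524-74794773 (minus strand) for BTC and chr2:70553827-70554076 (minus strand) for TGFA. AREG held a CRE match beginning 65 bases before the start, a sequence found on either strand in 1.77% of 27305 promoter windows of the same length. EREG, AREG and EPGN each held TATAAA, beginning 32, 29 and 29 bases before the start. Of all windows 11.1% held it anywhere in the 250 bases on either strand, and the share at these positions was not counted. The search for TATAAA was added after the sequences were seen. None of the 5 windows held TGANTCA (the AP-1 site, 6.60% of windows), TGATGNAA (CARE, bound by ATF4 and CEBP factors, 3.19%) or CACGTG (the E-box, 6.49%) on either strand. CRE and TATAAA matches did not overlap. The TGFA window was 75.6% G or C, against 58.0% for EREG, 65.2% for AREG, 62.0% for BTC and 38.0% for EPGN.

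**Figure D1:**
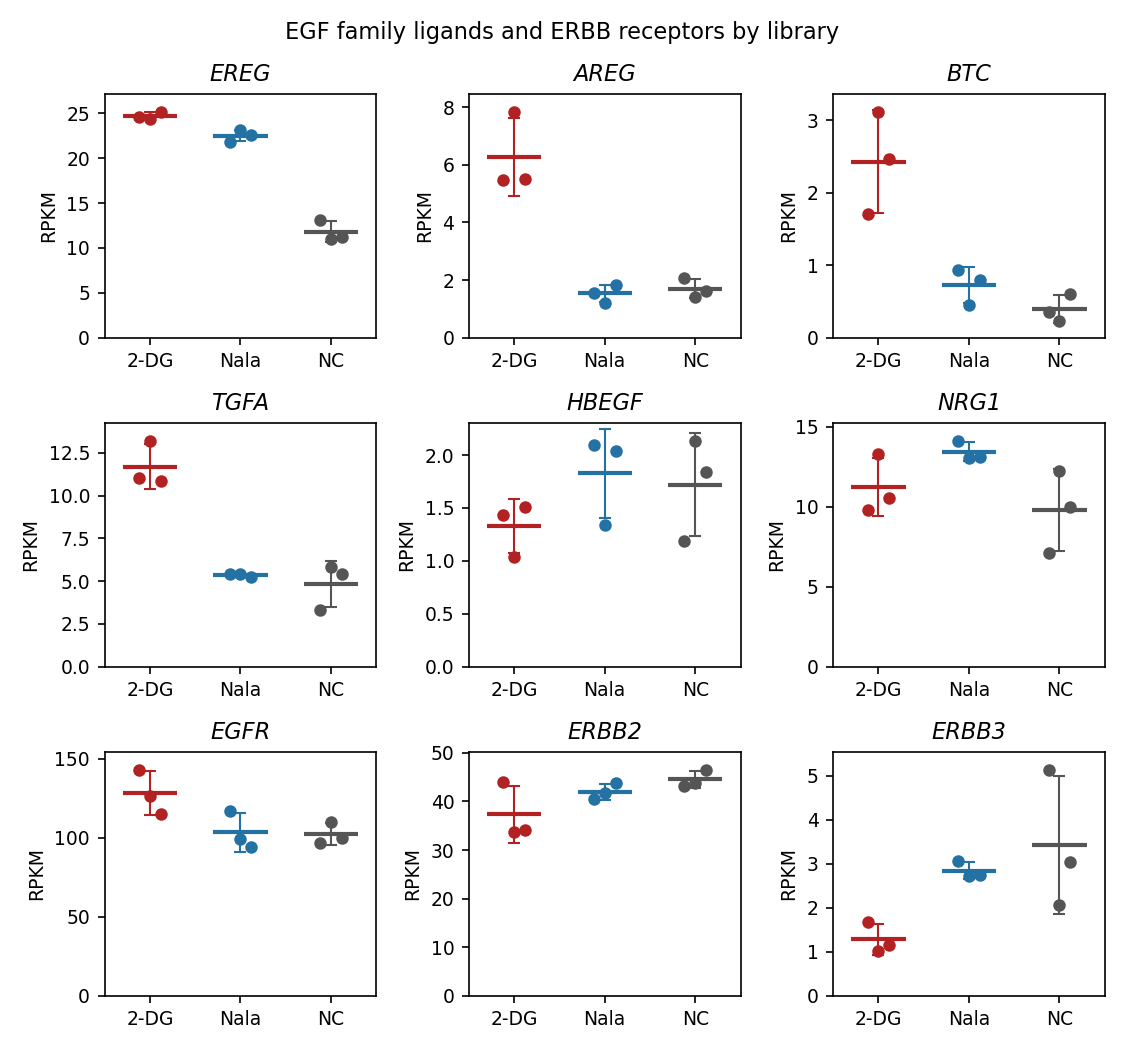
RPKM of the 9 genes in each library (points), with group mean (line) and SD over the 3 libraries (bars), on linear axes from 0. EREG is high with both 2-DG and Nala, AREG, BTC and TGFA with 2-DG, and ERBB3 is lowest with 2-DG.

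With 2-DG, 4 of the 6 ligands were higher than in NC, by 2.10-fold for EREG, 2.41-fold for TGFA, 3.68-fold for AREG and 6.12-fold for BTC in mean RPKM, while HBEGF and NRG1 overlapped NC. With Nala, EREG was at 1.91-fold of NC. Among the receptors EGFR was 1.26-fold higher and ERBB3 fell to 0.375 of its NC mean with 2-DG. In the fit over all genes (limma on log2(RPKM + 1), adjusted p under 0.05 counted as called) 6 of the 9 were called between 2-DG and NC, 5 higher and 1 lower, with BTC among the 5 entering the fit only through its 2-DG libraries, beside 43.3% of all genes tested (22.6% higher, 20.7% lower). Between Nala and NC 1 of the 9 was called, beside 0.0619% of all genes. Between 2-DG and Nala 3 were called, all higher, beside 35.9% (18.0% higher, 17.9% lower). The 2-DG and NC libraries did not overlap for 6 of the 9 (5 above, 1 below), beside 52.1% of all genes (27.1% above, 25.0% below), and the 2-DG and Nala libraries did not overlap for 5 (4 above, 1 below), beside 58.2% (29.4% above, 28.9% below). Those of Nala and NC did not overlap for 2, both above, beside 18.2%. Because the genes were picked on these contrasts, nothing is read from these shares.

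EREG encodes epiregulin. It had 24.6, 24.4 and 25.2 RPKM with 2-DG, 21.8, 23.2 and 22.6 RPKM with Nala, and 13.1, 11.02 and 11.2 RPKM in NC. Every library of both treatments was above every NC library, and the 2-DG libraries were all slightly above the Nala ones. These levels rest on 706 to 752 reads with 2-DG, 653 to 712 with Nala and 322 to 392 in NC. The log2 difference was 1.01 (SE 0.0936) for 2-DG against NC and 0.87 (SE 0.105) for Nala against NC. Between 2-DG and Nala it was 0.14, with a 95% interval of -0.095 to 0.38. EREG was among the 8 genes called between Nala and NC, all 8 of them higher with Nala, which is a description because it was picked with these levels known. The others included PPIAP46, SLC6A12, IFIT2, THPO, AKR1B1 and IFIT3. That call was lost without Nala replicate 1 (log2 difference 0.91), NC replicate 2 (0.83), NC replicate 3 (0.84) or 2-DG replicate 3, which shares only the spread (0.87), and in a fit of the 2 groups alone.

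AREG encodes amphiregulin and starts 80 kb beyond the start of EREG. It had 5.47, 7.84 and 5.51 RPKM with 2-DG, 1.56, 1.22 and 1.82 RPKM with Nala, and 2.07, 1.42 and 1.63 RPKM in NC. All 2-DG libraries were above all others, and those of Nala and NC overlapped. The reads behind these values were 84 to 127 with 2-DG, 20 to 30 with Nala and 23 to 33 in NC. The log2 difference was 1.42 (SE 0.171) for 2-DG against NC, 1.50 (SE 0.191) for 2-DG against Nala and -0.08 (SE 0.191) for Nala against NC. The interval of the last ran from -0.51 to 0.35, so AREG at these depths showed no difference with Nala of the size seen for its neighbour EREG. The ratio of AREG to EREG in RPKM was accordingly 0.219 to 0.321 with 2-DG, 0.0525 to 0.0805 with Nala and 0.129 to 0.157 in NC, with no overlap between the groups.

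BTC encodes betacellulin, which binds EGFR and ERBB4. It had 1.71, 3.12 and 2.46 RPKM with 2-DG, 0.936, 0.455 and 0.795 RPKM with Nala, and 0.352, 0.231 and 0.609 RPKM in NC. The 2-DG libraries were all above the rest, but NC held only 2 to 5 reads per library, 10 in all, against 62 with 2-DG. The ratio of reads per counted total was 6.21, with an exact 95% interval of 3.16 to 13.6 that covers counting error only. The log2 difference for 2-DG against NC was 1.28 (SE 0.207), a scale that understates the change of so low a gene, and BTC passed the filter on low values only through its 2-DG libraries. Against Nala the 2-DG difference was 0.93 (SE 0.232).

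TGFA encodes transforming growth factor alpha. It had 11.02, 13.2 and 10.8 RPKM with 2-DG, 5.39, 5.45 and 5.27 RPKM with Nala, and 3.33, 5.83 and 5.40 RPKM in NC. The 2-DG libraries stood above both other groups, and NC replicate 1 was the lowest library. The log2 difference was 1.14 (SE 0.177) for 2-DG against NC, or 0.94 without NC replicate 1, and 0.99 (SE 0.198) for 2-DG against Nala. For Nala against NC it was 0.15, with an interval of -0.29 to 0.60. The ratio of TGFA to EREG in RPKM was 0.430 to 0.541 with 2-DG and 0.233 to 0.247 with Nala, while NC spread over 0.253 to 0.529.

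HBEGF, whose precursor is also the receptor of diphtheria toxin, had 1.44, 1.04 and 1.51 RPKM with 2-DG, 2.10, 1.34 and 2.04 RPKM with Nala, and 1.18, 2.14 and 1.84 RPKM in NC. All 3 groups overlapped on 16 to 33 reads per library. Its log2 difference for 2-DG against NC was -0.21, with an interval of -0.64 to 0.21. NRG1, the neuregulin that binds ERBB3 and ERBB4, had 9.82, 13.3 and 10.6 RPKM with 2-DG, 14.1, 13.0 and 13.1 RPKM with Nala, and 7.13, 12.2 and 9.96 RPKM in NC. Each Nala library of NRG1 was above each NC library, as held for 10.2% of all genes tested, while 2-DG overlapped both groups. The NRG1 difference for Nala against NC was 0.47 (SE 0.202, interval 0.01 to 0.92) and was not called. For 2-DG against NC it was 0.20, with an interval of -0.21 to 0.61.

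**Figure D2:**
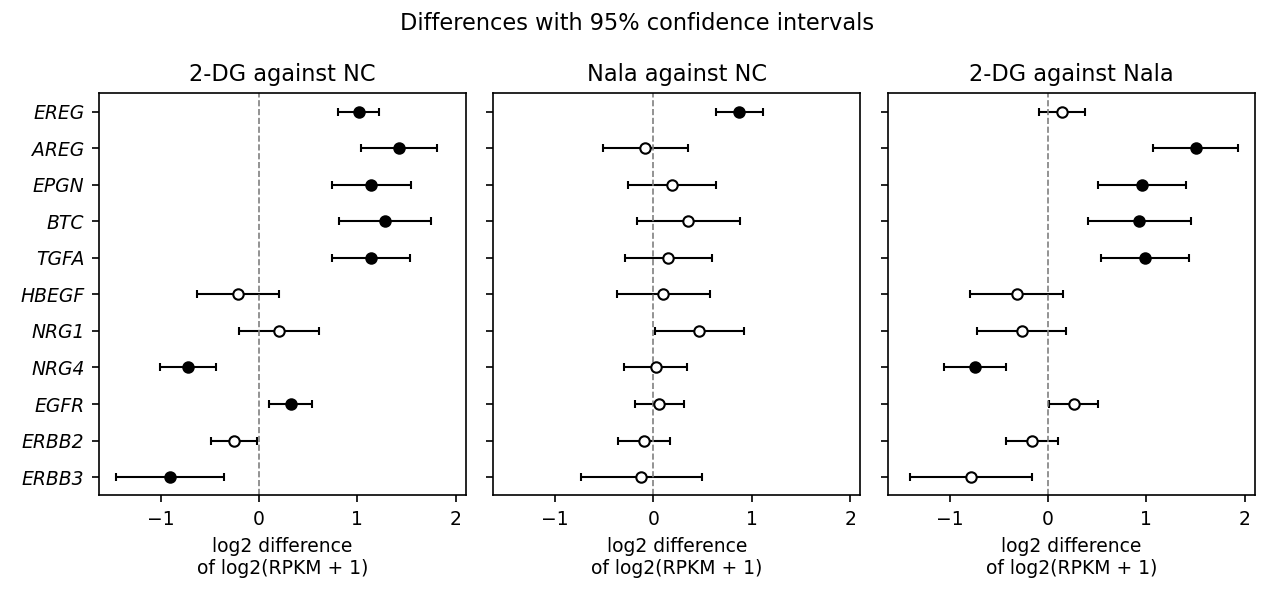
Differences of log2(RPKM + 1) with 95% confidence intervals for the 11 EGF family genes that were tested, in 3 comparisons. Filled points were called at an adjusted p under 0.05, and EREG is the only filled point for Nala against NC.

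EGFR was the most abundant of the 9 genes in every group. It had 143.0, 126.1 and 115.1 RPKM with 2-DG, 117.1, 99.1 and 93.8 RPKM with Nala, and 96.7, 110.0 and 99.4 RPKM in NC. The 2-DG libraries were all above NC, by a narrow margin, and overlapped Nala. The log2 difference for 2-DG against NC was 0.32 (SE 0.0982), which fell to 0.24 without 2-DG replicate 1. It was not called without that library, without 2-DG replicate 2 (0.33), NC replicate 1 (0.28) or NC replicate 3 (0.30), nor with median-of-ratios scaling (0.30), no filter or no intensity trend. For Nala against NC it was 0.06, with an interval of -0.19 to 0.31. The gene EGFR-AS1 lies within EGFR and was at 1.21 RPKM or below in every library.

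ERBB2 had 44.1, 33.8 and 34.2 RPKM with 2-DG, 40.4, 41.7 and 43.8 RPKM with Nala, and 43.2, 43.8 and 46.6 RPKM in NC. With 2-DG, replicate 1 lay among the NC libraries and replicates 2 and 3 below all of them. The log2 difference for 2-DG against NC was -0.26 (SE 0.104) and was not called, whereas it was called without 2-DG replicate 1 (-0.38) and, with all libraries, by voom on recovered reads (-0.26). ERBB2 shares sequence positions with MIR4728 and MIEN1, and whether counting used strand was not stated, so reads of overlapping genes cannot be told apart. ERBB3, a receptor with little kinase activity of its own that signals through its partners, had 1.68, 1.01 and 1.16 RPKM with 2-DG, 3.06, 2.72 and 2.74 RPKM with Nala, and 5.15, 2.07 and 3.05 RPKM in NC. The 2-DG libraries were below all others, and NC replicate 1 was far above its group. The ERBB3 difference for 2-DG against NC was -0.91 (SE 0.246), or -0.64 without NC replicate 1, and it was not called without 2-DG replicate 2 (-0.82). For 2-DG against Nala it was -0.78 (SE 0.275), not called in this fit and called in 9 of 20 alternatives.

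By mean level the order in 2-DG cells was EGFR, ERBB2, EREG, TGFA, NRG1, AREG, BTC, HBEGF and ERBB3. The ranges of TGFA and NRG1 overlapped there, and so did those of HBEGF and ERBB3. In Nala cells the order was EGFR, ERBB2, EREG, NRG1, TGFA, ERBB3, HBEGF, AREG and BTC, where the ranges of HBEGF and AREG overlapped. In NC it was EGFR, ERBB2, EREG, NRG1, TGFA, ERBB3, HBEGF, AREG and BTC, where the ranges of EREG and NRG1, of TGFA and ERBB3, of ERBB3 and HBEGF and of HBEGF and AREG overlapped. RPKM is per length, so these levels are set beside each other, as far as the gene models and the counting allow, which was not tested.

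Added over the 6 ligands, the level was 54.1, 62.9 and 56.1 RPKM with 2-DG, 45.9, 44.6 and 45.7 RPKM with Nala, and 27.2, 32.9 and 30.6 RPKM in NC. The 3 groups did not overlap in this sum, which leaves out the tested ligands EPGN and NRG4. NRG4 was lower with 2-DG, at 7.03 to 9.32 RPKM against 13.0 to 15.5 in NC, while EPGN was higher. In NC the mean of NRG4 was above that of each of the 6 ligands, although its range overlapped that of EREG. The separation is thus stated for the 6 picked ligands only, and a sum with EPGN and NRG4 was not tested. EREG made up 38.8 to 45.5% of the sum with 2-DG, 47.5 to 51.9% with Nala and 33.5 to 48.3% in NC. AREG made up 9.83 to 12.5% with 2-DG, 2.72 to 3.99% with Nala and 4.31 to 7.60% in NC. The share of NRG1 was 18.2 to 21.1% with 2-DG, 28.7 to 30.7% with Nala and 26.2 to 37.2% in NC. The 3 receptors summed to 150.4 to 188.8 RPKM with 2-DG, 140.3 to 160.7 with Nala and 145.1 to 155.9 in NC, which overlap. EGFR took 75.7 to 78.4% of the receptor sum with 2-DG, 66.9 to 72.9% with Nala and 66.6 to 70.6% in NC.

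**Figure D3:**
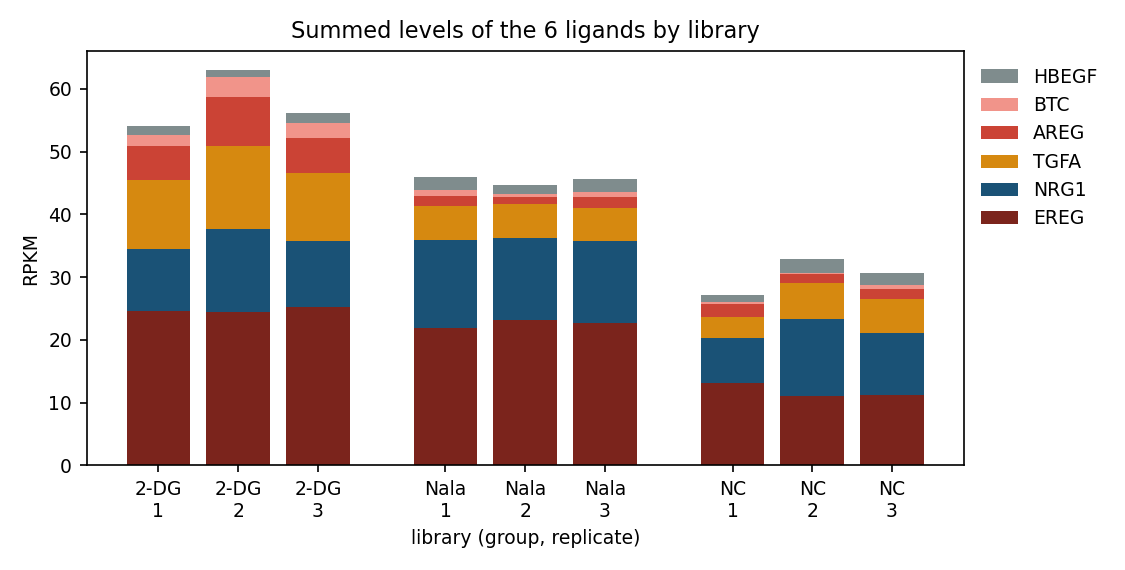
Stacked RPKM of the 6 ligands in each of the 9 libraries, grouped as 2-DG, Nala and NC. The sums are 54.1 to 62.9 RPKM with 2-DG, 44.6 to 45.9 with Nala and 27.2 to 32.9 in NC, with EREG the lowest segment.

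Of the 6 other genes of the family, EGF, EPGN, NRG2, NRG3, NRG4 and ERBB4, only EPGN and NRG4 were tested. EPGN, epigen, had 3.32, 5.03 and 4.82 RPKM with 2-DG, 1.73, 1.69 and 1.85 RPKM with Nala, and 1.79, 1.16 and 1.34 RPKM in NC. It rose by 1.14 (SE 0.178, limma adjusted p = 9.45e-04) with 2-DG against NC and was higher than with Nala by 0.96 (SE 0.199, limma adjusted p = 0.00562). NRG4, a neuregulin that binds ERBB4, had 7.03, 8.06 and 9.32 RPKM with 2-DG, 15.2, 13.7 and 12.9 RPKM with Nala, and 15.5, 13.0 and 13.5 RPKM in NC. With 2-DG it fell by 0.72 (SE 0.126, limma adjusted p = 0.00176), with no overlap between 2-DG and the other groups. NRG4 shares positions with FBXO22, which lay at 53.7 to 55.3 RPKM with 2-DG, 41.0 to 44.7 with Nala and 39.0 to 44.0 in NC. EGF had 1 to 5 reads per library and NRG2 and NRG3 at most 4. ERBB4, the receptor shared by BTC, HBEGF, EREG and the neuregulins, had 0 reads in all 2-DG libraries, 1 in the Nala libraries together and 2 in NC together.

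The stretch of chromosome 4 within 500000 bases of the 4 ligand genes held 14 protein-coding genes in RefSeq, of which 10 were in the table and 7 tested. The 3 tested genes beside the ligands, all on the EPGN side, were called higher with 2-DG against NC as well, beside 22.6% of all genes, and nothing particular to the stretch is read from 3 genes. CXCL2, a neutrophil-attracting chemokine, rose by 2.58 (SE 0.224) and CXCL3 by 1.49 (SE 0.212). MTHFD2L, a mitochondrial folate enzyme next to EPGN, rose by 0.37 (SE 0.112). These 3 genes were picked after their values were seen, so no p is given. None of the 3 was called with Nala, at log2 differences of -0.16, -0.03 and -0.20. EREG was thus the only gene of the 7 called with Nala, and the difference between its Nala effect and those of its neighbours was not tested. CXCL1, CXCL5 and PARM1 did not pass the filter. The size of this window was chosen after the ligands' values had been seen.

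**Figure D4:**
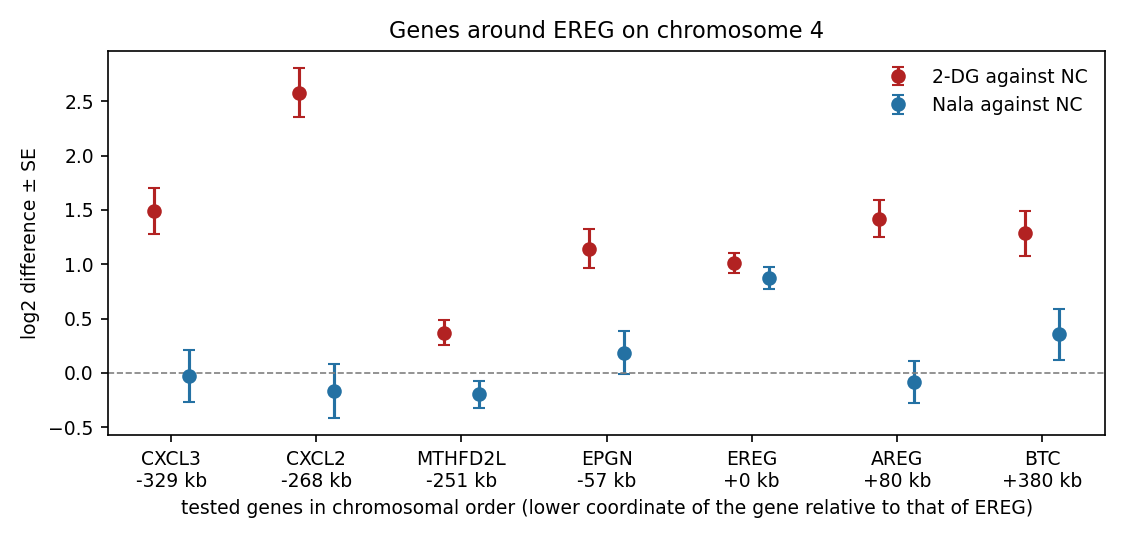
Log2 differences with SE of the 7 tested genes around EREG on chromosome 4, in chromosomal order, with the distance of each gene's lower coordinate from that of EREG. All 7 are above 0 for 2-DG against NC, and for Nala against NC EREG stands at 0.87.

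The genes most like a ligand over the 9 libraries were taken by Pearson's r of log2(RPKM + 1) for the 3 of the 9 genes with the largest 2-DG difference, AREG, BTC and TGFA. Closest to AREG were PRKAB2 (r = 0.990), RABGEF1 (0.989) and TARS3 (0.987). PRKAB2, a subunit of the energy sensor AMPK, averaged 24.1 RPKM with 2-DG, 14.3 with Nala and 14.5 in NC. Closest to BTC were BRAF (0.992), BBS7 (0.987) and EBLN3P (0.987), and closest to TGFA were ARFIP2 (0.991), EIF1 (0.990) and GARS1 (0.989). For EREG, added after its values were seen, the closest genes were RCAN1 (0.978), SAR1A (0.969) and TPBG (0.964). RCAN1, an inhibitor of calcineurin, averaged 29.5 RPKM with 2-DG, 27.2 with Nala and 18.8 in NC. These are descriptions over 9 libraries that share their treatments.

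Genes that act around the ligands and receptors were set out in 5 further lists. With 2-DG against NC, 54 of the 132 tested genes of these lists and of the other family genes were called, 30 higher and 24 lower. That is 40.9% beside 43.3% of all genes (22.6% higher, 20.7% lower). With Nala against NC limma called 0 of them, beside 0.0619% of all genes. At an unadjusted p under 0.05 there were 12, or 9.09%, beside 5.61% of all genes, and voom on recovered reads called 2.

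For ligand export and shedding, 5 of 17 tested genes rose and 5 fell with 2-DG, or 58.8% called beside 43.3% of all genes. The list's median log2 difference was -0.08 beside 0.02 for all genes. ADAM17, the main sheddase of AREG, EREG, TGFA and HBEGF, had 45.8, 41.5 and 38.9 RPKM with 2-DG, against 28.4, 26.5 and 31.1 RPKM in NC. It rose by 0.54 (SE 0.0951, limma adjusted p = 0.00183). RHBDF2, the iRhom that carries ADAM17 to the surface, rose by 0.61 (SE 0.110, limma adjusted p = 0.00211), and the membrane protease MMP14 rose by 0.69 (SE 0.137, limma adjusted p = 0.00333). The sheddase ADAM10, known to release BTC in mouse cells, fell by 0.35 (SE 0.109). CD9, a tetraspanin partner of the HBEGF precursor, fell by 0.47 (SE 0.0754). ADAM10 and CD9 were called, but they were picked after their values were seen, so no p is given.

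For receptor restraint and endocytosis, 6 of 20 tested genes rose and 1 fell, with a median of 0.12 beside 0.02 for all genes. The 7 called genes are a smaller share of the list than the 43.3% called among all genes (22.6% higher, 20.7% lower). CBLB, a ubiquitin ligase that marks EGFR for degradation, had 38.5, 44.2 and 38.9 RPKM with 2-DG, against 15.3, 17.0 and 17.3 RPKM in NC. It rose by 1.25 (SE 0.0908, limma adjusted p = 1.28e-05). RNF41, a ubiquitin ligase that acts on ERBB3, rose by 0.78 (SE 0.116, limma adjusted p = 7.25e-04), and the endosomal sorting protein STAM2 by 0.67 (SE 0.159, limma adjusted p = 0.00834). ERRFI1, an inhibitor that binds the EGFR kinase, rose by 0.63 (SE 0.176). It was called, but it was picked after its values were seen, so its p is not given.

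Of 36 tested adaptors and transducers 4 rose and 2 fell, or 16.7% called beside 43.3% of all genes, with a median of 0.06. GAB2, a docking protein, had 15.8, 17.0 and 16.6 RPKM with 2-DG, against 6.59, 6.87 and 6.48 RPKM in NC, and rose by 1.19 (SE 0.103, limma adjusted p = 3.30e-05). Its relative GAB1 fell by 0.62 (SE 0.183, limma adjusted p = 0.0223), a call lost without 2-DG replicate 2 (-0.62), 2-DG replicate 3 (-0.64), NC replicate 1 (-0.45) or NC replicate 3 (-0.60). The kinase BRAF rose by 0.66 (SE 0.104, limma adjusted p = 9.80e-04). GRB2, SHC1 and MAP2K1 had log2 differences between -0.07 and 0.13 and were not called.

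Among the ERK output genes, transcripts known to follow ERK activity, 8 of 24 rose and 3 fell, with a median of 0.10. That is 45.8% called beside 43.3% of all genes. DUSP5, a phosphatase of ERK, had 17.0, 23.7 and 23.8 RPKM with 2-DG, against 10.7, 8.03 and 5.93 RPKM in NC, and rose by 1.30 (SE 0.198, limma adjusted p = 8.20e-04). SPRED3, a relative of the RAS inhibitors SPRED1 and SPRED2, rose by 1.33 (SE 0.149, limma adjusted p = 1.53e-04). FOS, an immediate early factor, fell to 2.62, 1.91 and 2.23 RPKM with 2-DG, against 19.7, 9.69 and 9.55 RPKM in NC, with a log2 difference of -2.03 (SE 0.244, limma adjusted p = 2.22e-04). Its NC value was uneven, with replicate 1 well above the others. With Nala the list's median was 0.18 beside 0.01 for all genes. An unadjusted p under 0.05 was held by 5 of the 24 (20.8%), beside 5.61% of all genes, and 0 of the 24 passed adjustment in limma. The 5 went both ways, with SPRY4, ETV1, ETV4 and ETV5 higher with Nala and FOS lower (-0.70). In NC SPRY4 spread over 0.839 to 2.29 RPKM and ETV5 over 10.8 to 18.5.

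Of 33 tested other growth factors and receptor kinases 6 rose and 12 fell, or 54.5% called beside 43.3% of all genes, with a median of -0.09. FGFR4 fell to 6.41, 4.34 and 5.41 RPKM with 2-DG, against 22.1, 25.4 and 29.3 RPKM in NC, a log2 difference of -2.06 (SE 0.144, limma adjusted p = 9.78e-06). FGFR3 fell by 1.48 (SE 0.180, limma adjusted p = 2.43e-04). MET, the receptor of hepatocyte growth factor, fell by 1.06 (SE 0.129) and its relative MST1R fell by 1.24 (SE 0.184). MET and MST1R were called, but they were picked after their values were seen, so no p is given. FGF21, a secreted stress hormone, had 71 to 111 reads per 2-DG library, against 0 to 2 in NC. It was among the 6 called higher, but it passed the filter on low values only through its 2-DG libraries, so its p is not given.

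**Figure D5:**
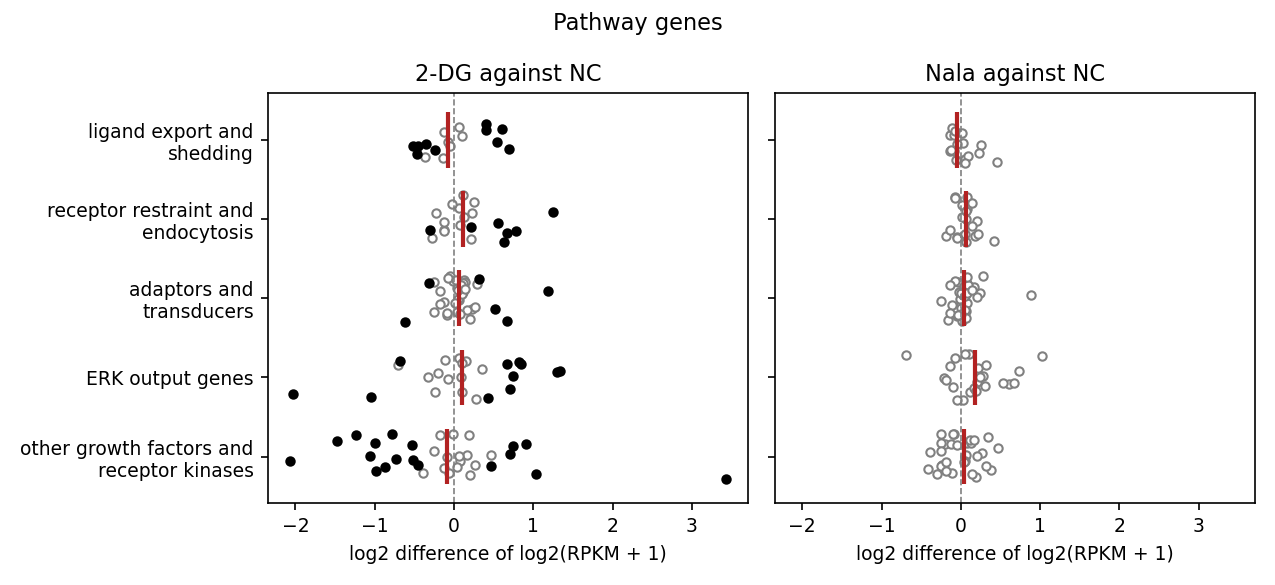
Log2 differences of the tested genes in 5 lists around the ERBB receptors (points, filled where called at an adjusted p under 0.05, red line at the list's median), for 2-DG against NC and Nala against NC. Called genes lie on both sides of 0 with 2-DG, and there are none with Nala.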

How the data were processed

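The deposited values are RPKM for 17808 genes in 9 RNA-seq libraries, 1 column per library, per the file headers; the authors made them on hg38, per the submitters' processing notes. Aligners and counters named there for the 3 assays together are STAR 2.7.6a, HISAT2 2.1.0, Bowtie2 2.2.5 and RSEM 1.2.8, and no source ties any of them to the RPKM. The 6 ChIP-seq and 2 ATAC-seq libraries were not used here.

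Each gene's values were whole multiples of 1 read (100% of genes, within 0.0001 reads), which gave the counted totals. Intervals on reads cover counting error only. Genes that reached 1 RPKM in 3 or more libraries were tested as log2(RPKM + 1) with limma 3.58.1 (R 4.3.3) and an intensity trend, all groups in 1 fit of 8 samples with 5 residual degrees of freedom. Adjustment was by Benjamini-Hochberg over all 12922 genes. The p-values measure the spread between libraries that the design calls biological replicates. Fits were also run on data simulated with 1 dispersion for all genes. Only genes well above the filter were changed there, so that run does not bear on low genes such as BTC.

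The members, lists and motifs were chosen with earlier results of these data known. The named genes are the 9 members, the other family genes, up to 3 called genes per list with the largest 2-DG change and the 3 genes most like each of 3 members; ADAM10, CD9, ERRFI1, MET, MST1R, the adaptors given as not called and the chromosome 4 neighbours were picked after their values were seen. Alternatives were another pseudocount, 2 filters, 3 scalings, no trend, a minimum fold of 2, a fit of only the groups compared, the Nala pair apart, a replicate block, voom on recovered reads and each library left out.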

Additional observations from a re-analysis of the deposited data

How the results depend on the processing

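EREG, AREG and TGFA were called higher with 2-DG against NC under all 21 alternatives and EPGN under the 20 that kept it. BTC passed the filter on low values only through its 2-DG libraries, so its calls under filtered fits say nothing about stability. No called family gene changed sign under any alternative. With a pseudocount of 0.1 the log2 difference with 2-DG against NC was 1.82 for AREG, 2.38 for BTC and -1.28 for ERBB3. The median of all genes moved by less than 0.1 under each scaling.

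Leaving out 1 library gave 4186 to 6006 called genes for 2-DG against NC (5592 with all libraries), 1 to 23 for Nala against NC (8; 1 without Nala replicate 1, 4 without NC replicate 3, 19 without NC replicate 1 and 23 without 2-DG replicate 1) and 2217 to 5176 for 2-DG against Nala (4639). The 2217 genes and 28 pathway genes for the last pair came without Nala replicate 1, where the lone Nala sample is assumed to vary like the others. Of the 9 members the counts were 3 to 6 (6), 0 to 1 (1) and 2 to 4 (3), the 3 without 2-DG replicate 2, and of the pathway genes 41 to 61 (54), 0 to 0 (0) and 28 to 52 (46). A minimum fold of 2 left 1081 genes for 2-DG against NC and 1037 for 2-DG against Nala, 13 and 12 pathway genes, 1 member for 2-DG against Nala and 0 for Nala against NC. Fitting the compared groups alone also left 0 members for Nala against NC. For 2-DG against Nala 5 members were called with the Nala pair apart, in the replicate block and with voom. The share of all genes called in those fits is not given here, so nothing is read from that count. For Nala against NC the genes called were 25 with no filter, 15 with a filter of 5 RPKM, 16 with common sum scaling, 13 with median-of-ratios scaling, 17 with quantile normalization, 64 with the Nala pair apart, 31 in the replicate block and 72 with voom, which also called 2 pathway genes. The cause of these shifts was not tested.

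No sign was seen that the replicate numbers pair samples. Deviations of same-numbered libraries correlated at -0.119 to 0.0772 over 9 pairs, and those of other pairs at -0.12 to 0.142. Because deviations from a mean of 3 libraries sum to 0, these values constrain each other and cannot exclude a pairing. The block, run with the Nala pair apart, changed no other count of calls by over 1.5 times. Depth limits BTC most, with 2 to 5 reads per NC library. HBEGF with 18 to 33, EPGN with 21 to 32 and AREG with 23 to 33 reads per NC library follow.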
